A study of Equus caballus with 28 samples.

Results

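The mature horse miRNAs eca-miR-122, eca-miR-192, eca-miR-194 and eca-miR-215, were followed across tissues and fluids of the mare and her conceptus. They were taken by name, as every known miRNA with one of these numbers and any suffix, and 4 entries met this among 690 known miRNAs, or 844 with the predicted ones. Small RNA was sequenced from 28 samples collected 13 days after ovulation. The uterus was sampled as endometrium and uterine fluid (UF), each in 5 pregnant and 4 cyclic cycles, and the conceptus as tissue and yolk sac (YS) fluid, each in 5 pregnancies. Pregnant mares had been inseminated with fresh semen of a single stallion, cyclic mares were left unbred, and in both cycles ovulation was induced with hCG. The Warmblood mares served as their own controls in a switch-back design, and sample numbers are read here as mares; mare 5 contributes no cyclic library. UF was recovered on an intra-uterine tampon and YS fluid by aspiration, and the embryonic tissue was stored without its capsule. The embryonic tissue was not divided further, so its endoderm was not measured apart from its other layers.

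MicroRNAs are short RNAs that repress messenger RNAs, which they recognise mainly through the seed near their 5′ end. miR-122 is the predominant miRNA of hepatocytes, where it acts in lipid metabolism. miR-192 and miR-215 share a seed, each is encoded beside a copy of miR-194, and the 3 are known from epithelia of gut, liver and kidney, where HNF1 and HNF4 factors drive them. Hepatocytes and gut epithelium arise from endoderm, and in the equine conceptus endoderm lines the yolk sac cavity. In the RefSeq gene table of assembly TB-T2T, the genes MIR192 and MIR194-1 were each other's nearest miRNA gene, as were MIR215 and MIR194-2. The deposited counts list miR-194 once, so its copies cannot be told apart. How reads matching several copies, or both miR-192 and its relative miR-215, were counted is not given in the sources used here.

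The depth behind these values was uneven. Libraries held between 280065 and 590593 reads in pregnant endometrium, between 28204 and 44768 in embryos and between 4352 and 14531 in YS fluid. Levels are given as CPM, counts per 1000000 reads counted on miRNAs of the same library, and 3 reads, taken as the floor of detection, corresponded to between 5.08 and 10.7 CPM in pregnant endometrium but to between 206 and 689 CPM in YS fluid. Floors, Poisson intervals and intervals of pooled read ratios cover counting error only. They take each read as a separate molecule, although the libraries were amplified without molecular identifiers. Intervals of the fitted log2 fold changes include the spread between libraries. Early embryonic miRNAs (the miR-302 family, miR-367, miR-371 and miR-372) checked the labels: their summed level ran from 12020 to 65295 CPM in embryos, from 34891 to 264130 CPM in YS fluid, and did not exceed 32.2 CPM in any uterine group. YS fluid of mare 4 stood apart with 4352 reads and 6893 CPM of smooth muscle and stroma miRNAs, against between 623 and 1978 CPM in the other YS fluids, and embryo 1 had the lowest early embryonic sum of the embryos. YS fluid of mare 2 had the highest early embryonic sum of the YS fluids (264130 CPM) and their lowest sum of epithelial miRNAs (48703 CPM). The fold changes and ratios of miR-192 and miR-194 that rest on YS fluid 4 or embryo 1 are also given without that library.

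miR-122 was a conceptus miRNA in these samples. In embryos it reached 496, 4244, 1989, 2563 and 2367 CPM in mares 1 to 5, a mean of 2332 ± 1341 CPM (SD, n = 5). In YS fluid it reached 14766, 5673, 7500, 4136 and 3923 CPM, a mean of 7200 ± 4466 CPM (SD, n = 5). It ranked between 35 and 65 among the known miRNAs of the embryos and between 16 and 39 in YS fluid, embryo 1 being the lowest and YS fluid 1 the highest. In pregnant endometrium it stood at 26.2, 23.7, 11.9, 7.14 and 17.4 CPM, from 31 reads in all. The cyclic endometrium gave 29.9 CPM in mare 2, 14.4 CPM in mare 4 and no read in mares 1 and 3. Pregnant UF held 2 reads of miR-122 over its 5 libraries and cyclic UF 6 reads over 4, with no UF library above the floor. The ranges of embryo and pregnant endometrium, next to each other in the order of group means, did not overlap, whereas YS fluid and embryo overlapped, as did every further pair of neighbours among the uterine groups.

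miR-192, the best counted of the 4, was present in every library. It reached 1099, 4467, 6270, 6027 and 3212 CPM in the embryos of mares 1 to 5 (mean 4215 ± 2138, SD, n = 5). YS fluid gave 6196, 1384, 7424, 460 and 4748 CPM (mean 4042 ± 3020, SD, n = 5). The low value of mare 4 came from 2 reads, with an exact Poisson interval from 55.7 to 1660 CPM. Embryo and YS fluid thus had similar group means and overlapping ranges. In pregnant endometrium miR-192 stood at 416, 349, 94.8, 232 and 340 CPM, and in pregnant UF of the same mares at 1032, 527, 281, 386 and 682 CPM. Cyclic endometrium gave 501, 339, 153 and 330 CPM and cyclic UF 648, 437, 177 and 328 CPM in mares 1 to 4. The uterine groups followed each other in the order pregnant UF, cyclic UF, cyclic endometrium and pregnant endometrium, with means between 286 and 582 CPM and overlapping ranges throughout.

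miR-194, encoded beside miR-192, had a lower mean than miR-192 in every group. Embryos held 213, 402, 691, 208 and 314 CPM (mean 365 ± 198.6, SD, n = 5), from 68 reads in all. YS fluid held 1978, 484, 2373, 460 and 551 CPM (mean 1169 ± 930, SD, n = 5), from 63 reads, of which mare 4 contributed 2. Mares 1 and 3 had the high YS fluids, well apart from the other 3. The levels in pregnant endometrium were 78.5, 44.4, 35.6, 82.1 and 59.0 CPM, and those in pregnant UF 230, 109, 39.3, 72.3 and 152 CPM. The cyclic mares gave 97.0, 109.6, 21.5 and 61.1 CPM in endometrium and 126.2, 172, 16.1 and 133 CPM in UF. Neighbouring groups overlapped throughout the order from YS fluid, embryo, pregnant UF and cyclic UF down to cyclic and pregnant endometrium.

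miR-215, the seed relative of miR-192, was at the limit of detection everywhere. In all, 10 reads were counted over the 28 libraries, and no library exceeded 2 reads. Each cyclic endometrium held 1 read, cyclic UF of mare 2, embryo 4 and YS fluid 3 held 2 reads each, and pregnant endometrium and pregnant UF held none. At these depths 3 reads would have amounted to between 67.0 and 106 CPM in embryos, so a lower level of miR-215 in a single embryo lies under the floor. The 2 reads of embryo 4 stood at 69.3 CPM, under its own floor of 104 CPM.

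**Figure D1:**
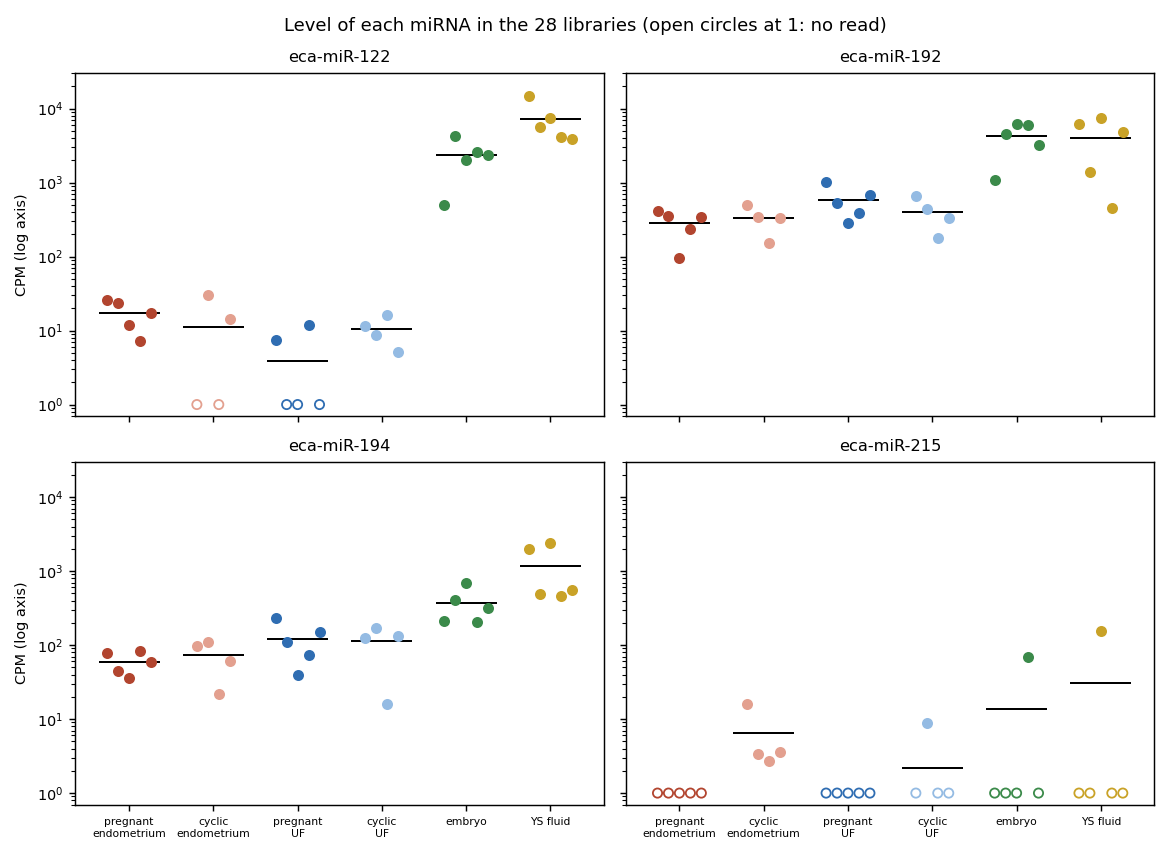
Level of eca-miR-122, eca-miR-192, eca-miR-194 and eca-miR-215 in CPM (log axis) in each of the 28 libraries, by group; filled points are libraries, open circles at 1 are libraries without a read, and black bars are group means. miR-122 separates embryo and YS fluid (496 to 14766 CPM) from the uterine groups (at most 29.9 CPM), miR-192 and miR-194 show a smaller step, and miR-215 has a read in 7 libraries.

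The embryo was then set against pregnant endometrium, the tissues extracted with the same kits. miR-122, miR-192 and miR-194 were all higher in the embryo, and their ranges in CPM did not overlap between the groups. The edgeR quasi-likelihood fit with TMM normalisation gave log2 fold changes of 5.67 (SE 0.66, FDR 1.36e-05) for miR-122, 2.56 (SE 0.53, FDR 0.00126) for miR-192 and 1.32 (SE 0.45, FDR 0.0192) for miR-194. These correspond to 51.1-fold, 5.91-fold and 2.50-fold higher normalised levels, and each miRNA was higher in 5 of 5 mares. All 3 tested members were thus called (FDR at most 0.05 and at least 2-fold), with 71.3% of all 359 miRNAs called in this comparison and 28.7% called higher in the embryo; 103 miRNAs were higher and 153 lower. miR-122 was further up this list than miR-192 and miR-194: 12.0% of all tested miRNAs had a higher log2 fold change than miR-122, against 20.1% for miR-192 and 29.2% for miR-194. Without embryo 1 the log2 fold changes were 5.79, 2.69 and 1.31, and all 3 stayed called. The call of miR-194 was lost with the mare as block (log2 fold change 1.22, FDR 0.0906), and without pregnant endometrium 3 (1.21, FDR 0.0503), embryo 2 (1.13, FDR 0.0656) or embryo 3 (0.77, FDR 0.128).

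How the libraries are scaled moved the size of these differences. Scaling by library totals alone raised the log2 fold change of a miRNA, in the median over all miRNAs tested, by 1.28 for embryo against endometrium, by 1.99 for YS fluid against endometrium, by 1.42 for embryo against UF and by 1.66 for YS fluid against UF. With RLE size factors this median rise was 0.44, 0.79, 0.65 and 0.68. On totals, pooled reads of miR-122 were 148-fold higher in embryo than in pregnant endometrium (95% interval 103 to 221), those of miR-192 16.3-fold and those of miR-194 6.77-fold. No direction of a called difference turned between these scalings. The split of all calls did turn: with totals alone 140 miRNAs were higher and 94 lower in the embryo than in endometrium, and 119 higher and 59 lower in YS fluid than in endometrium, where RLE gave 78 and 87.

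YS fluid was next compared with pregnant endometrium. All 3 tested members were higher in YS fluid, miR-122 by a log2 fold change of 6.55 (SE 0.51, FDR 1.30e-07, edgeR), miR-194 by 2.24 (SE 0.53, FDR 0.00200) and miR-192 by 1.76 (SE 0.55, FDR 0.0134). All 3 were called, with 53.1% of all 341 miRNAs called and 17.9% called higher (61 higher, 120 lower). miR-122 stood near the top, with 2.64% of tested miRNAs above it. Here miR-194 had the larger log2 fold change than miR-192, but with libraries thinned to the smallest the order turned (4.54 for miR-192 and 2.62 for miR-194, both called). YS fluid and endometrium were extracted with different kits, so fluid and kit cannot be told apart here. Without YS fluid 4 the log2 fold changes were 6.67, 2.35 for miR-194 and 1.98 for miR-192, all called. The call of miR-192 was lost without pregnant endometrium 3 (1.51, FDR 0.0608) or 4 (1.59, FDR 0.0600), or without YS fluid 1 (1.26, FDR 0.0896), 3 (1.13, FDR 0.125) or 5 (1.33, FDR 0.0741). Leaving out YS fluid 1 lowered the log2 fold change of miR-122 to 5.87, and leaving out YS fluid 3 lowered that of miR-194 to 1.47, both still called.

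The uterine fluid surrounds the conceptus, and YS fluid against pregnant UF compared fluids extracted with the same kit. miR-122 was higher in YS fluid in 5 of 5 mares. Since UF gave only 2 reads, its fitted log2 fold change of 8.62 depends on the prior count, and the pooled ratio on library totals was 1935 with an interval from 532 to 16036. miR-194 was called higher in YS fluid with a log2 fold change of 1.50 (SE 0.61, FDR 0.0450, edgeR). miR-192 was not called at 1.05 (95% interval −0.18 to 2.28, FDR 0.126), although it was higher in YS fluid in 5 of 5 mares in CPM and in 3 of 5 after TMM normalisation. Of the 3 tested members 2 were called, with 59.2% of all 277 miRNAs called and 23.5% called higher (65 higher, 99 lower; RLE gave 87 and 78, totals alone 114 and 53). Of these 2, miR-122 had a read in only 2 of 5 pregnant UF libraries. It met the low-count filter only through YS fluid, so its call could hardly have gone the other way. Without YS fluid 4 miR-194 stayed called (1.73, FDR 0.0318), and the difference in miR-192 was called (1.35, FDR 0.0297). It was also called with RLE (1.78, FDR 0.0130), library totals alone (2.81, FDR 0.000949), DESeq2 (1.78, FDR 0.00531), filterByExpr (1.92, FDR 0.00890) and thinned libraries (1.55, FDR 0.0442). The call of miR-194 was lost with the mare as block (1.36, FDR 0.0677), and without pregnant UF 2 (1.50, FDR 0.0835), 3 (1.32, FDR 0.114), 4 (1.39, FDR 0.0973) or 5 (1.56, FDR 0.0636) or YS fluid 1 (1.48, FDR 0.0695) or 3 (1.20, FDR 0.0935).

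Embryo against pregnant UF set a tissue against a fluid, and the kits differ again. miR-122 was higher in the embryo, 448 reads against 2, a pooled ratio of 711 with an interval from 196 to 5885. miR-192 was called higher with a log2 fold change of 1.37 (SE 0.53, FDR 0.0351, edgeR). miR-194 gave 0.13 (95% interval −1.15 to 1.41, FDR 0.871) and was not called, but with library totals alone it was (1.59, FDR 0.0229). Of the 3 tested members 2 were called, with 68.4% of all 310 miRNAs called and 29.7% called higher (92 higher, 120 lower; RLE gave 116 and 100, totals alone 146 and 85). Of these 2, miR-122 met the low-count filter only through the embryos, so its call could hardly have gone the other way. Without embryo 1 the log2 fold change of miR-192 was 1.95 (FDR 0.000850), and that of miR-194 was 0.56 (FDR 0.395, not called). The call of miR-192 was lost with the mare as block (1.36, FDR 0.0957), and without pregnant UF 2 (1.41, FDR 0.0560), 3 (1.20, FDR 0.0849), 4 (1.25, FDR 0.0789) or 5 (1.31, FDR 0.0722) or embryo 2 (1.27, FDR 0.0745). The fitted log2 fold change of miR-122 was 7.47, and 8.07 without pregnant UF 4.

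**Figure D2:**
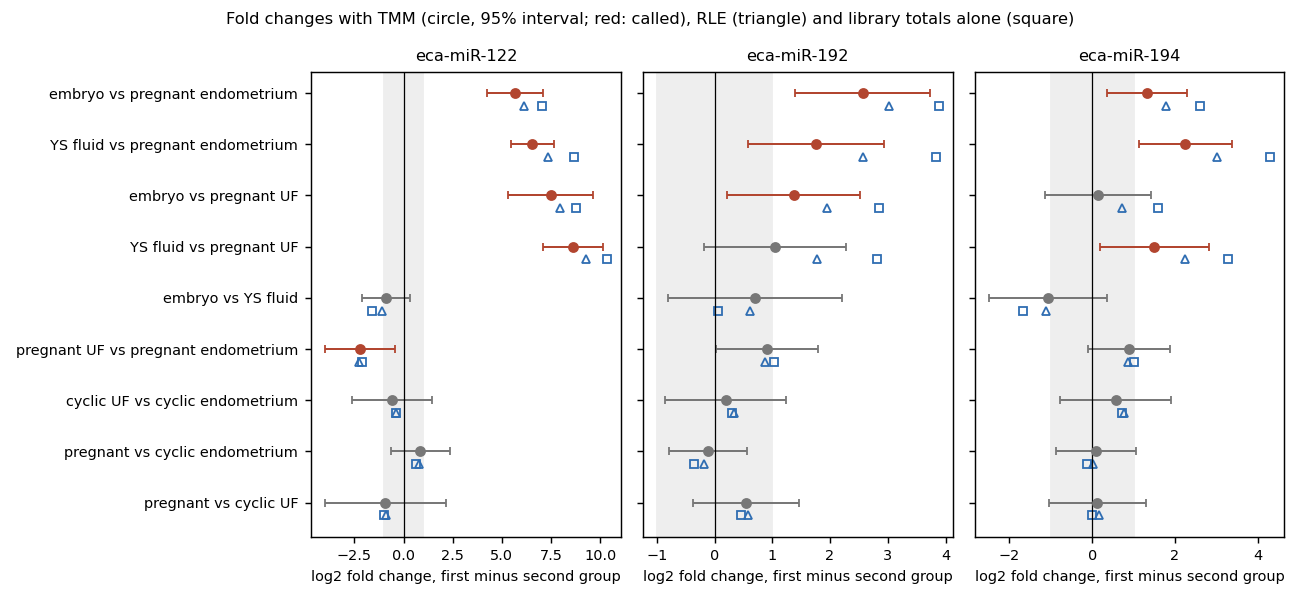
Log2 fold change, first minus second group, of eca-miR-122, eca-miR-192 and eca-miR-194 in each comparison; circles with bars are TMM estimates and 95% intervals (red: called), triangles are RLE and squares library totals alone, and the grey band spans less than a 2-fold change. The estimates of embryo and YS fluid against the uterus lie right of 0 under each scaling, and the intervals between pregnant and cyclic mares all include 0.

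The samples of one conceptus were compared next. None of the 3 tested members was called between embryo and YS fluid, where edgeR called 35.1% of 259 miRNAs (57 higher in embryo, 34 lower; with totals alone 40 and 55). The log2 fold changes, embryo minus YS fluid, were −0.90 for miR-122 (95% interval −2.14 to 0.33, FDR 0.223), 0.70 for miR-192 (−0.81 to 2.20, FDR 0.451) and −1.08 for miR-194 (−2.50 to 0.35, FDR 0.213). These intervals include differences of more than 2-fold, so similar levels are not shown. Without YS fluid 4 they were −1.19, 0.34 and −1.30 and without embryo 1 −0.78, 0.86 and −0.97, none of them called. miR-122 was called lower in the embryo with totals alone (−1.62, FDR 0.0427), filterByExpr (−1.40, FDR 0.0318) and thinned libraries (−1.60, FDR 0.0428), and miR-194 with filterByExpr (−1.41, FDR 0.0373). In CPM, YS fluid was above the embryo of the same mare in 5 of 5 pairs for miR-122 and miR-194 and in 3 of 5 for miR-192. After TMM normalisation this held in 3 of 5 pairs for miR-122 and 4 of 5 for miR-194. The unequal kits of embryo and YS fluid apply here too.

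Within the uterus, fluid and biopsy of the same mare were compared. miR-192 was higher in pregnant UF than in pregnant endometrium in 5 of 5 mares, by 0.91 on the log2 scale (95% interval 0.03 to 1.80, edgeR FDR 0.0959), which was not called. miR-194 differed by 0.89 (−0.10 to 1.89, FDR 0.146) and was higher in UF in 4 of 5 mares in CPM. miR-122 was called lower in UF at −2.22 (FDR 0.0463), with 33.7% of all 359 miRNAs called and 20.1% called lower. miR-122 met the low-count filter here only through endometrium. The endometrial levels of 7.14 to 26.2 CPM lie mostly under the UF floor of 19.6 to 37.9 CPM, so a single UF library could hardly show a difference. On library totals, pooled reads of miR-122 were 4.79-fold higher in endometrium (95% interval 1.22 to 41.3). The call rests on 31 reads against 2. It was lost with the mare as block (FDR 0.0998), with totals alone, and without pregnant endometrium 1 (−1.99, FDR 0.0930), 2 (−2.23, FDR 0.0690) or 5 (−2.22, FDR 0.0671) or pregnant UF 1 (−2.73, FDR 0.0512), 2 (−1.94, FDR 0.111), 3 (−1.86, FDR 0.121) or 5 (−2.17, FDR 0.0657). Without pregnant UF 4 it was −2.91 (FDR 0.0295). In cyclic mares, none of the 4 members was called between UF and endometrium (30.8% of 328 miRNAs called), with log2 fold changes of −0.57 for miR-122, 0.19 for miR-192 and 0.57 for miR-194.

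**Figure D3:**
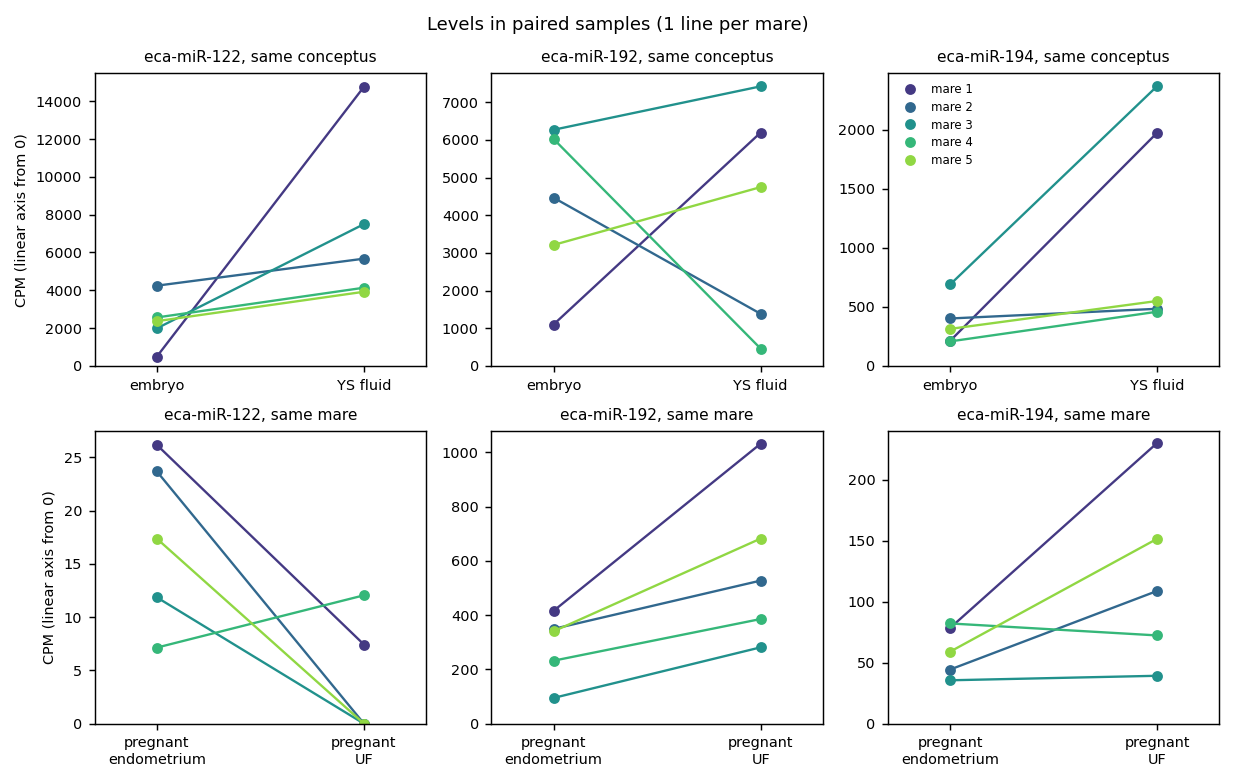
CPM (linear axis from 0) of eca-miR-122, eca-miR-192 and eca-miR-194 in embryo and YS fluid of the same conceptus (top) and in pregnant endometrium and pregnant UF of the same mare (bottom), 1 line per mare. miR-122 and miR-194 rise from embryo to YS fluid in 5 of 5 pairs, and miR-192 rises from endometrium to UF in 5 of 5 mares.

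No member differed past the test between pregnant and cyclic mares. Between pregnant and cyclic endometrium, with the mare as block, edgeR called none of the 4 members and 3.37% of 386 miRNAs. The log2 fold changes were 0.85 for miR-122 (95% interval −0.64 to 2.34, FDR 0.778), −0.12 for miR-192 (−0.79 to 0.56, FDR 0.940) and 0.09 for miR-194 (−0.88 to 1.06, FDR 0.977). miR-215, with 1 read in each of 4 cyclic biopsies and none in 5 pregnant ones, had an FDR of 0.223, and both groups lay under the floor. In UF none of 3 tested members was called, with 4.92% of 305 miRNAs called. miR-192 was higher in pregnant UF in 4 of 4 mares, by 0.54 on the log2 scale (95% interval −0.38 to 1.47, FDR 0.770), miR-194 differed by 0.12 (FDR 0.999) and miR-122 by −0.93 (FDR 0.946). The step from endometrium to UF was also compared between pregnant and cyclic mares: the interaction was −1.98 for miR-122 (FDR 0.916), 0.49 for miR-192 and 0.04 for miR-194 (FDR 1.00 for both), and 0 of 415 miRNAs were called, 26 having an unadjusted p under 0.05 (7 were called with the mare as block).

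The level of miR-192 in the uterus followed the mare. In 4 of 4 uterine groups mare 1 had the highest and mare 3 the lowest CPM of miR-192, and mare 3 was lowest in 4 of 4 groups for miR-194 too. The conceptus of mare 3 was at the other end, with the highest miR-192 and miR-194 of the 5 embryos and, in CPM, of the 5 YS fluids (after TMM normalisation, YS fluid of mare 1 was highest). The summed level of the 6 epithelial miRNAs (miR-200a, miR-200b, miR-200c, miR-141, miR-429 and miR-205) was lowest in mare 3 in 3 of the 4 uterine groups, and its part in the order was not tested. This is a description of 5 mares and was not tested.

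A ratio within a library does not depend on scaling. The log2 ratio of miR-192 to miR-194 was 3.38 ± 0.89 in embryos and 1.55 ± 1.07 in YS fluid (SD, n = 5 each), against 2.14 ± 0.67 in pregnant endometrium and 2.31 ± 0.25 in pregnant UF. Pooled reads gave 11.3 reads of miR-192 for each read of miR-194 in embryos, 4.66 in pregnant endometrium and 3.73 in YS fluid. In the embryo the ratio was higher than in pregnant endometrium by 1.25 (two-sided exact permutation test p = 0.0317, adjusted 0.0847 over 8 ratio comparisons) and higher than in pregnant UF by 1.07 (exact permutation p = 0.0238, adjusted 0.0847), and neither passed the correction. Without embryo 1 these differences were 1.53 and 1.35 (adjusted exact permutation p = 0.0635 for both). In YS fluid it differed by −0.59 from endometrium (adjusted exact permutation p = 0.463) and by −0.77 from UF (adjusted exact permutation p = 0.292); without YS fluid 5 the latter was −1.14 (adjusted p = 0.0317, exact permutation). Without YS fluid 4 the differences were −0.20 and −0.38 (adjusted exact permutation p = 0.717 and 0.540). This test takes the 2 groups as unpaired, and with 5 libraries in each its smallest possible unadjusted p is 0.00794. That limit is higher with a library left out. A version paired by mare was not run. Ratios of miR-215 to miR-192 were set by the added 0.5 read, since 4 of 5 embryos, 4 of 5 YS fluids and every pregnant uterine library had no read of miR-215, and they carry no measure of it.

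**Figure D4:**
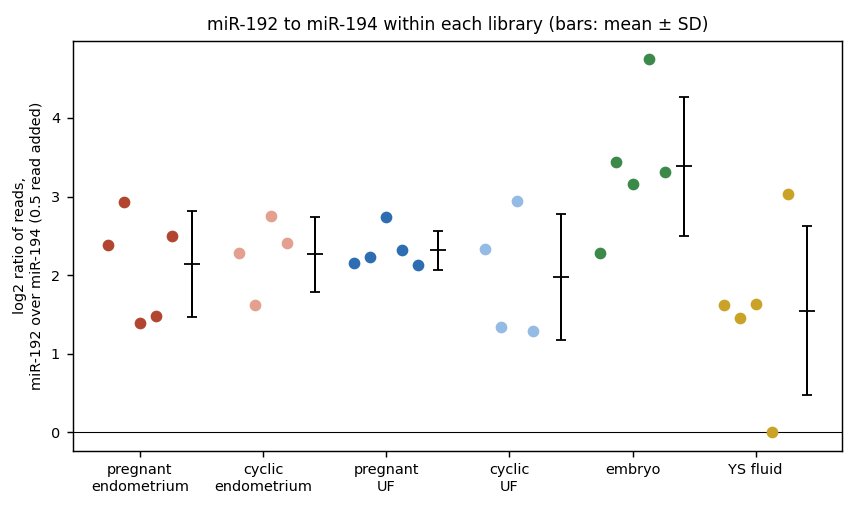
Log2 ratio of miR-192 to miR-194 reads within each library (0.5 read added to both), by group; points are libraries and black bars are mean ± SD. The embryos lie between 2.28 and 4.75 and the YS fluids between 0.00 and 3.03, and both ranges overlap those of the uterine groups.

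The 3 counted members did not share a single pattern over the 28 libraries. On log2 normalised CPM, miR-192 and miR-194 correlated with r = 0.64 (0.60 after removing group means), miR-122 and miR-192 with 0.60 (0.33) and miR-122 and miR-194 with 0.58 (0.17). Among 150 known miRNAs with at least 100 CPM on average, those most like miR-122, members apart, were the early embryonic miR-302d, miR-302b and miR-302a (r = 0.97 each, but 0.58, 0.58 and 0.55 after removing group means). miR-192 was most like miR-22, miR-20a and miR-767-5p (r = 0.68, 0.67 and 0.66, but 0.65, 0.08 and −0.06 after removing group means). Outside the members, miR-194 was most like miR-17 and miR-106a, relatives in the miR-17 family, and miR-302a (r = 0.66, 0.65 and 0.59, but 0.39, 0.37 and 0.25 after removing group means). These are descriptions over libraries that differ in depth and tissue.

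Few of the other miRNAs linked to endoderm, liver, pancreas or gut could be tested. miR-375 was on this list but had no entry among the known miRNAs. Of the 9 entries found, 7 had a read, and miR-216a and miR-802 had none. Of these, 2 were tested between embryo and pregnant endometrium: miR-7, known from neuroendocrine and pancreatic cells, was higher in the embryo by a log2 fold change of 2.57 (FDR 3.31e-05, edgeR), and miR-31, an epithelial miRNA, was lower by 5.04 on the log2 scale (log2 fold change −5.04, FDR 2.14e-07). Their median was −1.23, beside −1.02 over all 359 miRNAs, but as the midpoint of 2 opposite values it does not describe the list. YS fluid against endometrium gave 1.17 for miR-7 (FDR 0.0453) and −5.52 for miR-31 (FDR 1.82e-06), and both were called in the same directions against UF. miR-483, encoded within IGF2, had 39 reads over the 28 libraries; it was called higher in cyclic UF than in cyclic endometrium (3.74, FDR 0.0266) and not called in pregnant mares (1.98, FDR 0.113).

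Lists of cell type miRNAs moved with the comparisons above. In embryo against pregnant endometrium and in YS fluid against it, 7 of 7 smooth muscle and stroma miRNAs (miR-143 and miR-199a among them) were called lower. So were 5 of 5 leukocyte, 4 of 4 erythroid and blood and 2 of 2 endothelial miRNAs, beside 42.6% and 35.2% of all tested miRNAs. The entries miR-199a-3p and miR-199b-3p had nearly the same counts (24955 and 24910 reads over the 28 libraries), so they do not count as separate results. Of the early embryonic miRNAs 7 of 7 tested were called higher, beside 28.7% and 17.9% of all tested miRNAs. They met the low-count filter only through embryo or YS fluid libraries, so they could only come out higher. For the same reason, miRNAs without a read in embryos or in YS fluid could only come out lower there. In embryos these were 2 smooth muscle and stroma, 2 leukocyte and 1 erythroid and blood miRNAs, and in YS fluid 2, 4 and 2. Among the early embryonic miRNAs, miR-302d had no read in pregnant endometrium and means of 8146 CPM in embryos and 16757 CPM in YS fluid. The epithelial list was mixed, with 1 higher and 3 lower in the embryo and 0 higher and 3 lower in YS fluid, and its median log2 fold changes of −1.34 and −1.91 are about the size of the shift of 1.28 and 1.99 between TMM and library totals. In CPM, its sum was higher in embryos (93710 to 131812) than in pregnant endometrium (49244 to 72098), and the YS fluids (48703 to 117864) overlapped endometrium. Blood miRNAs summed to 112 to 314 CPM in embryos and 230 to 1379 CPM in YS fluid, against between 2674 and 11285 CPM in pregnant endometrium. Fewer cells of a type and less RNA per cell cannot be told apart in such bulk samples, and the part of cell makeup in the levels of miR-122, miR-192 and miR-194 was not tested.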

How the data were processed

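MicroRNA libraries were made from 100 ng total RNA with 18 PCR cycles, after extraction of fluids with the miRNeasy Serum/Plasma kit and of tissues with the RNeasy Mini and MinElute kits. According to the submitters' processing notes, adapters were trimmed with cutadapt 1.11. The authors counted reads with miRPro on known horse miRNAs and on miRNAs predicted from the genome EquCab2.0, and deposited raw counts per miRNA without normalization. Counts of known and predicted miRNAs were analysed together, 844 entries in all. The paper considers its predicted miRNAs likely overcounted, through duplicates with almost the same counts. Such duplicates were not merged here, so numbers and shares of miRNAs called are those of entries. Precursor counts repeated those of the predicted miRNAs and were not used.

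The 2 groups of a comparison were fitted alone in edgeR 4.0.16 under R 4.3.3 (TMM, quasi-likelihood test, Benjamini-Hochberg adjustment over all tested miRNAs). A miRNA was tested where 1 CPM was reached in as many libraries as the smaller group has, and called where the FDR did not exceed 0.05 and the change was 2-fold or more. Pregnant and cyclic samples were blocked by mare, so mare 5 entered the filter and normalization there but not the contrast. Same-mare libraries correlated in their deviations from group means at 0.274 on average in endometrium and 0.332 in UF (other pairs −0.0648 and −0.0826), and between −0.195 and 0.137 across tissues and fluids. The pairing itself comes from the switch-back design. p-values in comparisons across tissues rest on separate mares within each group. Ratios used exact two-sided permutation tests without pairing by mare, 0.5 read being added to both counts. Pooled ratios carry exact conditional 95% intervals, and single counts exact Poisson intervals. Python 3.11.15, scipy 1.17.1, pandas 2.3.3 and numpy 2.4.6 served for the rest. The fit was also run on simulated counts. These varied less between libraries than the data did in embryo or YS fluid against endometrium, so they do not show how the fit performs there.

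The members and lists were chosen with earlier results of these data known. Named besides the members were the 3 known miRNAs outside the members of at least 100 CPM most correlated with each member of at least 100 reads, and from each list up to 3 miRNAs of highest mean CPM. The miR-302 family members, miR-367, miR-205 and the others spelled out as list members are named only to define a list. miR-216a and miR-802 are named for having no read, and miR-375 for having no entry. Alternatives were RLE size factors, the likelihood ratio test of edgeR, DESeq2 1.42.0, filterByExpr (minimum count 10) or no filter on low counts, libraries thinned to the smallest of a comparison, the mare block added or left out, 1 read added in the ratios, and each replicate left out; scaling by library totals alone was chosen after seeing the data. No sequences were used here.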

Additional observations from a re-analysis of the deposited data

How the results depend on the processing

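Depth limited the low levels most: miR-215 was under the floor in every library and miR-122 in every UF library. Beside the leave-one-out fits, 4 fold changes of members were no longer called under at least 1 other setting (8 cases over all settings), 4 became called (10 cases) and 5 turned in sign (7 cases), none of these 5 being called; the others kept their direction and their side of the threshold. The causes were not tested. The signs turned with thinned libraries for miR-122 in cyclic UF against endometrium (0.68), miR-192 in pregnant against cyclic endometrium (0.035; 0.098 without the mare block) and miR-194 in pregnant against cyclic UF (−0.011; −0.0055 with totals alone), with totals alone for miR-194 in pregnant against cyclic endometrium (−0.13), and with the block for the interaction of miR-194 (−0.086). Of the members, 1 was called in embryo against pregnant UF with the block; in YS fluid against pregnant UF 1 with the block or without a low-count filter and 3 with RLE, totals alone, DESeq2, filterByExpr or thinning, against 2; in embryo against YS fluid 1 with totals alone or thinning and 2 with filterByExpr; and in pregnant UF against endometrium 0 with totals alone, DESeq2, filterByExpr, thinning or the block. Counts of all miRNAs called, 256, 181, 212, 164, 91 and 121 in embryo and YS fluid against endometrium, both against UF, embryo against YS fluid and pregnant UF against endometrium, moved by over 1.5 times with filterByExpr for embryo against endometrium (140), embryo against UF (101), YS fluid against UF (90), embryo against YS fluid (40) and UF against endometrium (75). Thinning did so for YS fluid against endometrium (96), YS fluid against UF (89) and embryo against YS fluid (41), and the block for the last (54). Between pregnant and cyclic mares, where 13 and 15 miRNAs were called in endometrium and UF, edgeR called 3 and 0 with filterByExpr, 8 and 8 with thinning and 0 and 0 without the replicate block, and DESeq2 called 7 in UF; at an unadjusted p under 0.05 the blocked fits had 65 and 41. The interaction gave 7 with the block and 0 without. Apart from the lost calls of members given with each comparison, the block changed the call of no member. Leaving out 1 replicate gave 1 to 2 called members in embryo against UF, 1 to 3 in YS fluid against UF and 0 to 1 in UF against endometrium, and 49 to 90 miRNAs called in embryo against YS fluid and 0 to 18 in pregnant against cyclic UF. Over the same fits the log2 fold change of miR-194 ran from −0.090 to 0.56 in embryo against UF, from −0.35 to 0.44 in pregnant against cyclic endometrium and from −0.41 to 0.49 in UF, its interaction from −0.31 to 0.42, that of miR-192 in endometrium from −0.43 to 0.032, that of miR-122 in cyclic UF against endometrium from −0.77 to 0.82 and that of miR-215 there from −3.02 to 0.086. Without a low-count filter, 4 members were called in YS fluid against endometrium, miR-215 with its 2 reads included. Ratios of miR-192 to miR-194 in YS fluid against UF ran from −1.14 to −0.38, and those of miR-215 to miR-192, set by the added read, from 1.42 to 2.62 in YS fluid and from −0.41 to 0.30 in embryo against endometrium.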
